A study of Mus musculus with 9 samples.

Results

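The Krüppel-like factors are DNA-binding proteins with zinc fingers at their carboxyl end, and 10 of their genes were followed here in E14 mouse embryonic stem cells (ESCs) and in embryoid bodies (EBs), the aggregates in which ESCs differentiate. The genes were Klf2, Klf3, Klf4, Klf5, Klf6, Klf7, Klf9, Klf10, Klf12 and Klf13, chosen by name, and the members were all 38 probe sets that the array's annotation paired with 1 of these symbols alone, out of 34945 probe sets and 18193 genes paired in the same way. RNA of 5 EB samples, labelled 1, 3, 5, 7 and 9, and of 4 ESC samples, labelled 2, 6, 8 and 10, was hybridized to Affymetrix mouse expression arrays. All samples carry the label E14 cells and no treatment, no engineered allele is labelled, and the labels give neither the age of the EBs nor their culture conditions. The ESC samples are described as biological replicates in the study's methods, and nothing says whether the EBs came from separate cultures, so p-values measure only the spread between these samples.

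Krüppel-like factors bind GC-rich and CACCC elements in promoters and enhancers, and some activate whereas others repress transcription. Klf2, Klf4 and Klf5 are known for sustaining self-renewal of mouse ESCs, where each can in part stand in for the others, and Klf4 is a classic reprogramming factor. Klf3 and Klf12 are repressors that recruit the corepressor CtBP, Klf9, Klf10 and Klf13 can recruit Sin3a, and Klf6 and Klf7 are widely expressed activators.

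Values are log2 of the deposited GCRMA intensity, differences are EB minus ESC on that scale, and each SE comes from limma. Differences were called at a Benjamini-Hochberg adjusted p under 0.05 over all 45037 probe sets that were not controls. A gene was counted by its probe set of highest mean over the 9 arrays. A log2 of 4 was taken as near the floor of the scale, and 49.1% to 49.9% of an array's probe sets fell short of it. Across probe sets, Pearson's r was 0.997 to 0.999 for any 2 EBs, 0.995 to 0.998 for any 2 ESCs and 0.968 to 0.977 for an EB with an ESC. Levels of different probe sets are not set against each other, since they also depend on how well each probe binds.

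With their probe sets of highest mean, Klf2, Klf4, Klf5 and Klf9 fell in EBs by between 7.52-fold and 12.3-fold. Klf10 fell by 0.56 ± 0.14 on the log2 scale (SE). The main probe sets of Klf3 and Klf6 rose by small amounts while other probe sets of both genes fell, and Klf7, Klf12 and Klf13 were not called. In all, 7 of the 10 genes were called, against 30.4% of all 18193 genes. Of these, 5 were lower in EBs, as were 14.7% of all genes, and 2 were higher, as were 15.7%. With a difference of at least 2-fold asked as well, 4 of the 10 were lower, against 3.63% of all genes, and 0 were higher, against 5.88%. By probe set, 18 of 38 were called, against 21.1% of all probe sets, with 16 lower (10.6% of all) and 2 higher (10.5% of all). At 2-fold or more, 11 of the 38 were lower (2.45% of all) and 0 higher (3.85% of all). Every EB array lay below every ESC array for 18 of the 38 (15.8% of all probe sets) and above for 2 (10.4%), and by gene for 5 (19.4%) and 2 (15.6%) of the 10. The genes were proposed with earlier results of these arrays known, so these shares describe the members and do not test them.

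**Figure D1:**
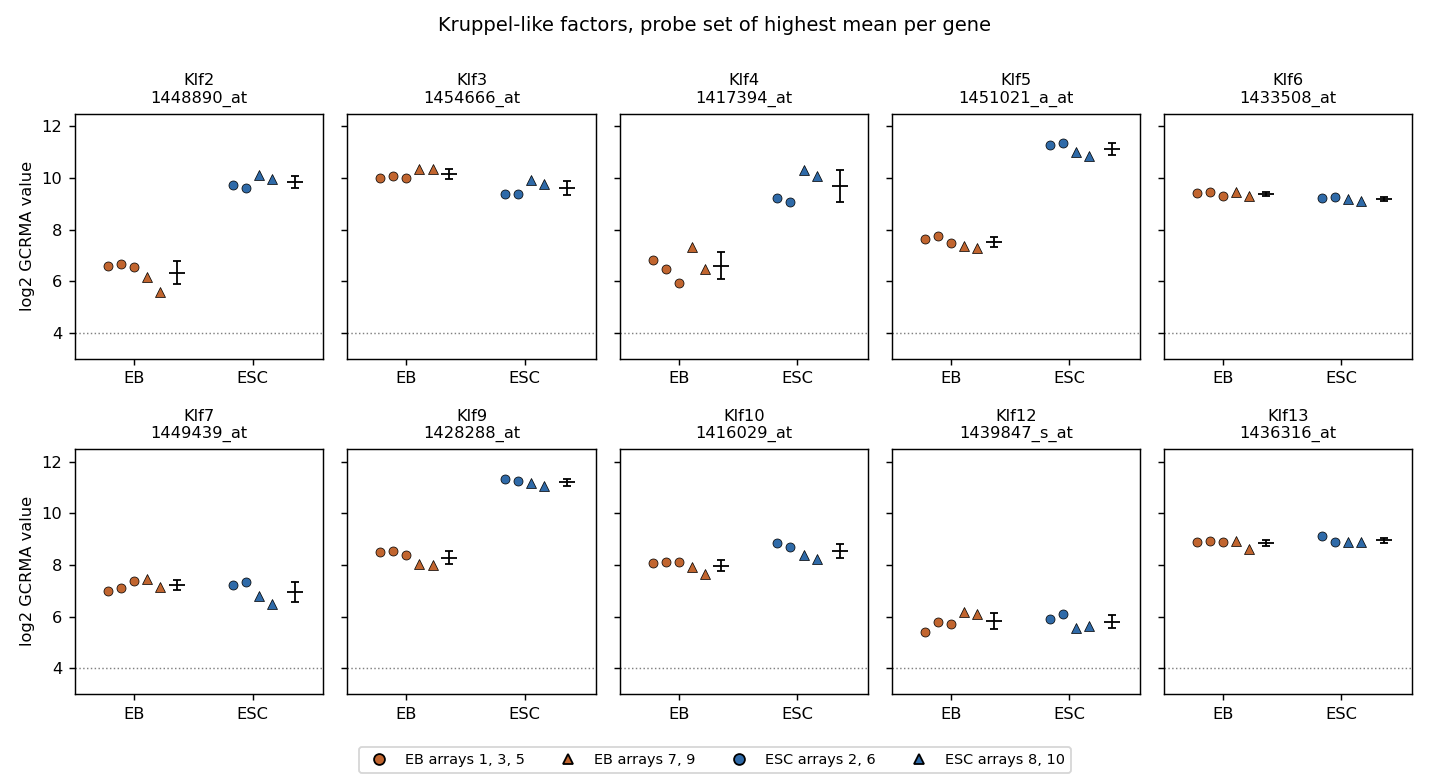
Log2 GCRMA value (vertical axis) of the probe set of highest mean for each of the 10 genes in 5 EB and 4 ESC arrays, circles for arrays 1 to 6 and triangles for arrays 7 to 10. Bars beside the points are mean and SD, the dotted line is log2 4, and Klf2, Klf4, Klf5 and Klf9 lie far lower in every EB array than in any ESC array.

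Klf5 and Klf2 showed the widest gaps. Klf5, a factor of the blastocyst, of gut epithelium and of smooth muscle, read 7.64, 7.76, 7.47, 7.38 and 7.28 in EB arrays 1, 3, 5, 7 and 9 with probe set 1451021_a_at, against 11.27, 11.35, 11.01 and 10.87 in ESC arrays 2, 6, 8 and 10. The 2 groups did not overlap, and the gap was many times the spread within either group. The difference was -3.62 ± 0.13 (SE, 5 EBs and 4 ESCs), or 12.3-fold lower in EBs, with a limma adjusted p of 2.35e-07. Its probe set 1451739_at read 6.11 ± 0.03 in EBs and 6.65 ± 0.40 in ESCs (SD, n = 5 and 4), a difference of only -0.54 ± 0.16 (SE), and 1430255_at stayed under log2 4 in both groups. With probe sets of the plain _at type alone Klf5 would be counted by this smaller difference. The study's own final analysis used only that type and discarded the others, as they may bind RNA of other genes. The call of 1451739_at was lost without EB 1, 3, 5 or 7 or without ESC 8 or 10, with differences of -0.56 to -0.54. It was also lost with the range of array numbers (1 to 6 or 7 to 10) as a block, at -0.54 (adjusted p = 0.053), and in arrays 1 to 6 alone, at -0.58 (0.234).

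Klf2, a factor of ESCs, endothelium and resting T cells, read 6.58, 6.68, 6.56, 6.17 and 5.60 in EB arrays 1, 3, 5, 7 and 9, against 9.73, 9.61, 10.12 and 9.97 in ESC arrays 2, 6, 8 and 10. The groups lay far apart, and EBs 7 and 9 were the lowest. The summed linear GCRMA value of 8 ESC markers was also lowest in EBs 7 and 9, at 3173 and 2576, against 4539 to 5846 in EBs 1, 3 and 5, and its part in the level of Klf2 was not tested. The difference was -3.54 ± 0.22 (SE), or 11.6-fold lower in EBs, with a limma adjusted p of 4.64e-06, and the array has this 1 probe set for the gene.

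Among the probe sets of highest mean, that of Klf4 had the largest SD in both groups, 0.53 in EBs and 0.62 in ESCs. Its probe set 1417394_at read 6.80, 6.45, 5.91, 7.34 and 6.47 in EB arrays 1, 3, 5, 7 and 9, against 9.24, 9.06, 10.32 and 10.08 in ESC arrays 2, 6, 8 and 10. ESC arrays 8 and 10 were 1.05 above arrays 2 and 6, a shift of 1 or more that 1.12% of all genes had. The difference was -3.08 ± 0.34 (SE), or 8.44-fold lower in EBs, with a limma adjusted p of 0.000144. The other probe set, 1417395_at, differed by -2.37 ± 0.27 (SE), and its ESC arrays 8 and 10 lay 0.98 above arrays 2 and 6.

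Klf9, an activator and repressor induced by glucocorticoids and thyroid hormone, also fell in EBs. With probe set 1428288_at it read 8.49, 8.55, 8.39, 8.03 and 8.0 in EB arrays 1, 3, 5, 7 and 9, against 11.34, 11.24, 11.17 and 11.05 in ESC arrays 2, 6, 8 and 10. The groups lay far apart, and EBs 7 and 9 were again the lowest, as they were for the ESC marker sum. EBs 7 and 9 also stood apart in the sums of red blood cell markers (3043 and 3779, against 11290 to 11889 in EBs 1, 3 and 5), endoderm markers (432 and 403, against 569 to 626) and neural markers (691 and 625, against 450 to 470). They did so too in smooth muscle markers (26997 and 27677, against 22206 to 23751). Sums of epithelium markers (17336 and 17604, against 17763 to 19671) and endothelium markers (181 and 197, against 200 to 221) lay apart more narrowly. Single markers differed in the mean log2 of EBs 7 and 9 minus that of 1, 3 and 5. Hba-x, Hbb-bh1 and Hbb-y gave -2.10 to -1.40, the other red blood cell markers -0.43 to -0.11. For endoderm, Foxa2 gave -0.65 and Afp -0.50, the others -0.16 to 0.03. For neural, Tubb3 gave 1.24 and Sox1 0.74, the others -0.05 to 0.39. Smooth muscle ran from 0.04 to 0.43, epithelium from -0.44 to 0.04 and endothelium from -0.48 to 0.21. Heart and fibroblast sums overlapped. The part of these in the levels of Klf2 and Klf9 was not tested. The difference of Klf9 was -2.91 ± 0.13 (SE), or 7.52-fold lower in EBs, with a limma adjusted p of 6.93e-07. Of the 7 probe sets of the gene, 6 were called lower. The probe sets 1422264_s_at, 1428289_at and 1456341_a_at differed by -2.96 ± 0.11, -2.93 ± 0.10 and -3.49 ± 0.21 (SE), the first with its EB mean of 3.34 near the floor, so that its difference may be understated, while 1436763_a_at and 1436952_at differed by less, at -0.94 ± 0.16 and -0.29 ± 0.06. The last one, 1452723_at, was under log2 4 in both groups.

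Klf10, first described as an early gene induced by TGF-β, read 8.06, 8.12, 8.13, 7.92 and 7.66 in EB arrays 1, 3, 5, 7 and 9, against 8.85, 8.69, 8.38 and 8.25 in ESC arrays 2, 6, 8 and 10. Every EB lay below every ESC, but EB 5 and ESC 10 were only about as far apart as replicates were. The difference was -0.56 ± 0.14 (SE), with a limma adjusted p of 0.0203. The call was lost without ESC 2, at -0.46 (adjusted p = 0.0511), and without ESC 6, at -0.51 (0.0596). It was also lost in arrays 7 to 10 alone, at -0.525 (0.0602). Klf10 stayed called lower with the range of array numbers as a block, at -0.60 (0.000341), and in arrays 1 to 6 alone, at -0.67 (0.00306).

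**Figure D2:**
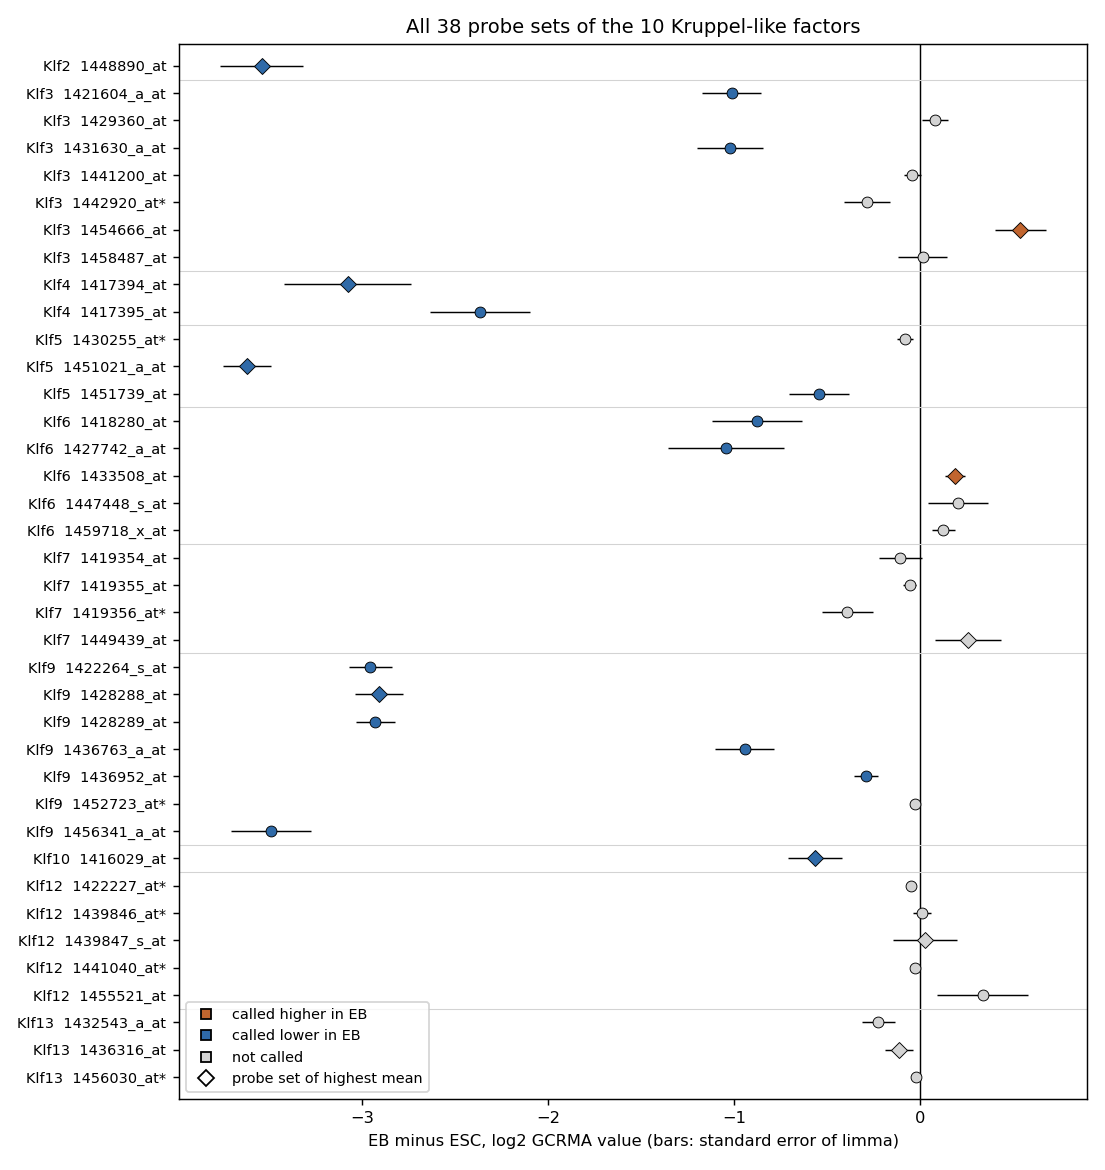
EB minus ESC difference (horizontal axis, log2 GCRMA value, bars are the SE of limma) of all 38 probe sets, colored by call, with diamonds for the probe set of highest mean and asterisks where both group means lie under log2 4. The probe sets of highest mean of Klf2, Klf4, Klf5 and Klf9 lie between -3.62 and -2.91, while Klf3 and Klf6 have called probe sets on both sides of 0.

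Klf3 and Klf6 were called in opposite directions by different probe sets of 1 gene. Of the 8 members with at least 2 probe sets these were the 2 with such a split, where 0.966% of the 9010 genes with at least 2 probe sets had one. Klf3 had 7 probe sets and Klf6 had 5, and this share was not matched for the number of probe sets. In Klf3 the called probe sets that fell, 1421604_a_at and 1431630_a_at, were not of the plain _at type, whereas 1454666_at, which rose, was. In Klf6 the plain 1418280_at fell and the plain 1433508_at rose. The source of the split was not tested.

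For Klf3, a repressor known from red blood cells, B cells and fat, the brightest probe set rose. It read 10, 10.07, 10.01, 10.33 and 10.36 in EB arrays 1, 3, 5, 7 and 9 with 1454666_at, against 9.37, 9.38, 9.92 and 9.78 in ESC arrays 2, 6, 8 and 10. Every EB lay above every ESC, though EB 1 exceeded ESC 8 by less than ESC 8 exceeded ESC 2. The difference was 0.54 ± 0.14 (SE), with a limma adjusted p of 0.0207, which became 0.0515 without EB 7, 0.0576 without ESC 2 and 0.0589 without ESC 6, at differences of 0.50, 0.46 and 0.46. This probe set stayed called higher with the range of array numbers as a block, at 0.58 (adjusted p = 4.03e-05). It was called higher in arrays 1 to 6 alone, at 0.65 (0.000801), and in arrays 7 to 10 alone, at 0.49 (0.0152).

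Probe set 1431630_a_at of Klf3 went the other way. It read 7.32, 7.25, 6.96, 6.86 and 7.18 in EB arrays 1, 3, 5, 7 and 9, against 8.33, 8.57, 7.87 and 7.76 in ESC arrays 2, 6, 8 and 10. The groups did not overlap, and the difference was -1.02 ± 0.18 (SE), with a limma adjusted p of 0.00243. Probe set 1421604_a_at fell alike, by 1.01 ± 0.16 on the log2 scale (adjusted p = 0.00121), with 6.66, 7.09, 6.52, 6.89 and 6.77 in EBs against 7.93, 8.15, 7.60 and 7.51 in ESCs. The mean of ESC arrays 8 and 10 minus that of 2 and 6 was -0.64 for 1431630_a_at and -0.49 for 1421604_a_at, but 0.48 for 1454666_at. The other 4 probe sets of Klf3 were not called. With the mean over all its probe sets Klf3 was called lower, at -0.25 (adjusted p = 0.00336).

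For Klf6, an immediate early type factor, probe set 1433508_at read 9.42, 9.46, 9.30, 9.44 and 9.30 in EB arrays 1, 3, 5, 7 and 9, against 9.23, 9.28, 9.18 and 9.10 in ESC arrays 2, 6, 8 and 10. The difference of 0.19 ± 0.06 (SE, adjusted p = 0.0402) was small, and it was no longer called without any 1 of EB 1, 3 or 7 or ESC 2, 8 or 10, where it ran from 0.16 to 0.20. Arrays 1 to 6 gave 0.14 and arrays 7 to 10 gave 0.24, neither called.

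Probe set 1427742_a_at of Klf6 read 7.31, 7.0, 7.07, 6.83 and 6.54 in EBs, against 8.14, 8.96, 7.46 and 7.42 in ESCs. Its difference of -1.04 ± 0.31 (SE, adjusted p = 0.0428) was called lower, and ESC arrays 8 and 10 minus 2 and 6 gave -1.11. Leaving out any 1 of EB 1, 3, 5, 7 or 9 or ESC 2 or 6 ended this call, at -1.13 to -0.72. Probe set 1418280_at differed by -0.88 ± 0.24 (adjusted p = 0.0304), a call lost without EB 3 or 5 or ESC 2 or 6, at -0.88 to -0.75. The remaining probe sets, 1447448_s_at and 1459718_x_at, had overlapping groups and were not called. With the mean over its 5 probe sets Klf6 stood at -0.28 and was not called.

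**Figure D3:**
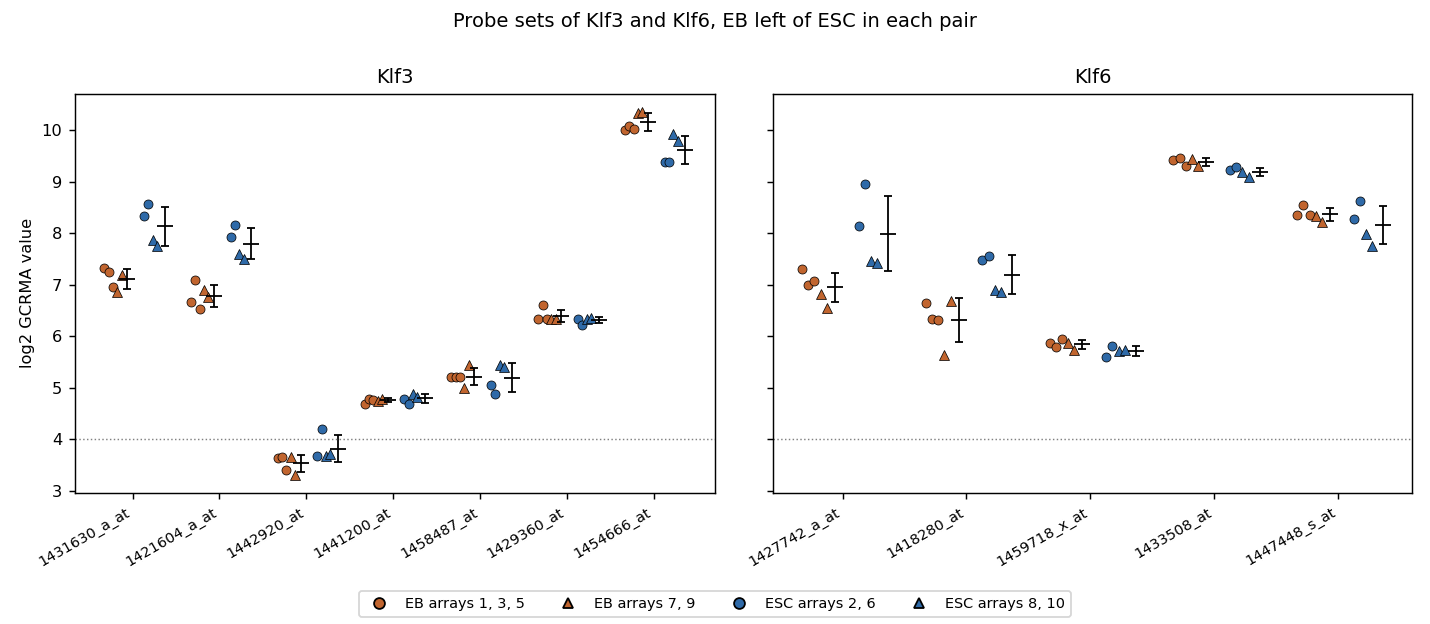
Log2 GCRMA value (vertical axis) of the 7 probe sets of Klf3 and the 5 of Klf6 in each array, ordered by difference from left to right, with EBs left of ESCs and mean and SD beside the points. In Klf3, 1431630_a_at and 1421604_a_at lie lower in EBs and 1454666_at higher.

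Klf7, Klf12 and Klf13 had none of their 12 probe sets called in the fit over all 9 arrays without a block. Klf7, known for axon growth of neurons, read 6.97, 7.10, 7.38, 7.47 and 7.16 in EB arrays 1, 3, 5, 7 and 9 with 1449439_at, against 7.21, 7.32, 6.80 and 6.50 in ESC arrays 2, 6, 8 and 10, and the groups overlapped (0.26 ± 0.18, SE, adjusted p = 0.245). Klf13, a factor of T cells and of the heart, read 8.88, 8.93, 8.88, 8.92 and 8.63 in EBs with 1436316_at, against 9.11, 8.91, 8.91 and 8.91 in ESCs (-0.11 ± 0.08, SE, adjusted p = 0.239). Probe set 1419356_at of Klf7, under log2 4 in both groups, differed by -0.39 (adjusted p = 0.0765) and was called lower without ESC 8, at -0.48 (0.0461), or without ESC 10, at -0.48 (0.0428). It was called as well with the range of array numbers as a block, at -0.42 (0.0252), with array weights, at -0.51 (0.0265), and in arrays 1 to 6 alone, at -0.64 (0.0101). Probe set 1432543_a_at of Klf13 differed by -0.22 ± 0.09 (SE, adjusted p = 0.0846) and was called lower with that block, at -0.24 (0.0345), after quantile normalization, at -0.32 (0.0253), with array weights, at -0.31 (0.0258), and in arrays 1 to 6 alone, at -0.38 (0.0105). Near the floor, Klf12 1422227_at was called lower with median centring, with array weights or without EB 9, at -0.05 to -0.03. Klf12 1441040_at and Klf13 1456030_at, also near the floor, were called lower with array weights or without EB 9, at -0.03 to -0.02. The p-values over all 9 arrays do not show that the levels were equal. Of the 38 probe sets of all members, 8 had both group means under log2 4, of which 3 were of Klf12 and 1 each of Klf3, Klf5, Klf7, Klf9 and Klf13.

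Klf12, a repressor of the AP-2α gene, differed in sign between the ranges of array numbers, but only the positive difference was called. With 1455521_at it read 5.19, 5.63, 5.57, 6.12 and 5.95 in EB arrays 1, 3, 5, 7 and 9, against 5.77, 5.73, 4.94 and 4.98 in ESC arrays 2, 6, 8 and 10. EBs 7 and 9 were the highest of all and ESCs 8 and 10 the lowest, so the difference was -0.29 in arrays 1 to 6 and 1.08 in arrays 7 to 10 (limma adjusted p = 0.00334 in the 4 arrays 7 to 10 alone), against 0.34 ± 0.24 (SE, adjusted p = 0.265) over all 9. Probe set 1439847_s_at, that of highest mean, differed by 0.03 ± 0.17 over all 9 arrays (SE, limma adjusted p = 0.901). It gave -0.37 in arrays 1 to 6 (adjusted p = 0.201) and 0.52 in arrays 7 to 10 (0.0191). Whether the difference itself changed between the ranges of numbers was not tested.

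The split of array numbers came from earlier work on these arrays and has no label of its own, so it is not named as a batch. Each range held both groups. Klf2 differed by -3.07 in arrays 1 to 6 and by -4.16 in arrays 7 to 10, Klf4 by -2.76 and -3.30, Klf5 by -3.69 and -3.61, and Klf9 by -2.82 and -3.10. All 4 were called lower within each range. With the range as a block, 5 member genes were called lower and 2 higher, though calls of single probe sets of Klf5, Klf7 and Klf13 changed as given for each. Beside the higher Klf4 in ESC arrays 8 and 10, the sum of 7 fibroblast markers stood higher there too. In linear GCRMA values it was 887 and 861 on arrays 8 and 10, against 408 and 376 on arrays 2 and 6. Sums of smooth muscle markers (12534 and 11052 on arrays 8 and 10, against 5786 and 5499 on arrays 2 and 6) and heart markers (530 and 436, against 279 and 276) stood higher on the same arrays. Single markers differed in the mean log2 of ESC arrays 8 and 10 minus that of 2 and 6. For fibroblast, Col3a1 gave 2.51 and Col1a1 2.14, the others -0.02 to 0.57. For smooth muscle, Acta2 gave 1.91 and Tagln 0.56, the others -0.22 to 0.01. For heart, Actc1 gave 1.76, the others -0.55 to 0.30. The part of these markers in the level of Klf4 was not tested.

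**Figure D4:**
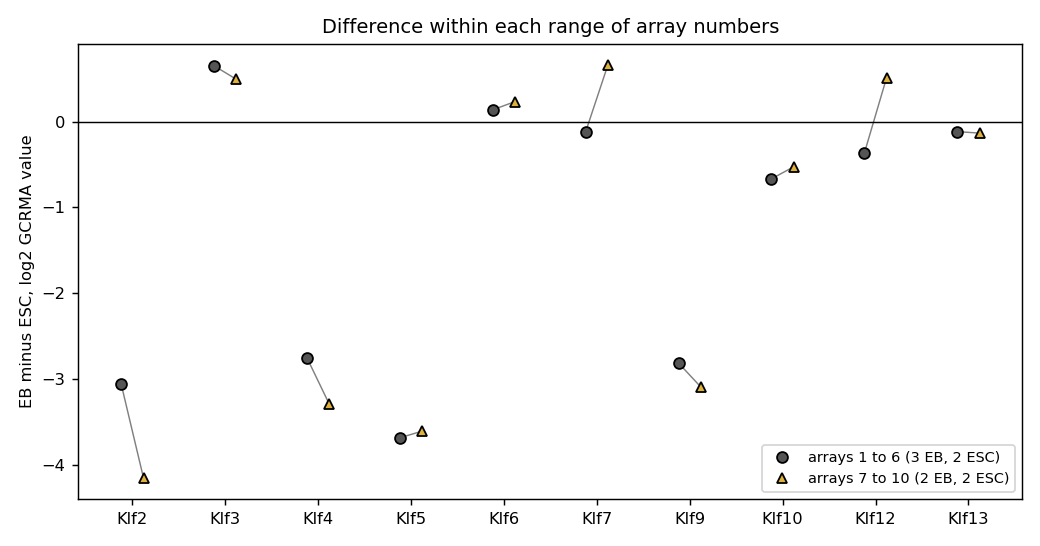
EB minus ESC difference (vertical axis, log2 GCRMA value) of the probe set of highest mean of each gene within arrays 1 to 6 (circles, 3 EBs and 2 ESCs) and within arrays 7 to 10 (triangles, 2 EBs and 2 ESCs). Klf2, Klf4, Klf5 and Klf9 lie under -2.7 in both ranges, while Klf7 and Klf12 lie on either side of 0.

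Bulk RNA cannot tell fewer cells of a type apart from less RNA per cell. Over all genes, 14.7% were called lower in EBs and 15.7% higher. Of 8 ESC markers, 7 were lower in EBs, with a summed linear GCRMA value of 2576 to 5846 in EBs and 34033 to 36807 in ESCs. Of 6 heart markers, 5 were higher, with sums of 12492 to 14909 in EBs and 276 to 530 in ESCs, as were 5 of 7 fibroblast markers (9508 to 10388 in EBs and 376 to 887 in ESCs) and 3 of 6 markers of red blood cells (3043 to 11889 in EBs and 112 to 134 in ESCs). Of 6 markers of endothelium, where Klf2 is known to be active, 4 were higher (sums of 181 to 221 in EBs and 89.0 to 106 in ESCs), but 2 of these 4, Cdh5 and Tie1, had both group means under log2 4, as did Pecam1, which was not called. The part of this change of cell types in the differences of the Klf genes was not tested.

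Promoter sequence was looked at because GC-rich and CACCC elements are what these factors bind. RefSeq windows of 250 bases before to 50 after the transcription start (mouse build GRCm38.p6) matched 8 of the 10 genes, all but Klf5 and Klf10. The letters CACCC, searched on both strands, were in 6 of the 8 windows and in 57.5% of 32851 windows of all genes, and GGGCGG in 6 of the 8 and in 35.7% of all. The windows had 45.7% to 76.7% G and C, against a median of 52.7% over all windows. Klf3 held 5 CACCC and 6 GGGCGG, Klf2 held 1 and 2, Klf4 held 0 and 4, and Klf9 held 1 and 0. A match is no proof of binding. One stretch each is shown for the 3 genes that fell most among those with a window and for Klf3, with 1 occurrence in capitals.
Klf2, chr8:72318836-72318865, + strand, GGGCGG 214 bases before the start: agggacggtcggGGGCGGggcccggccgcg
Klf4, chr4:55532559-55532588, - strand, GGGCGG 101 bases before the start: aagaaaggcaggGGGCGGggcctggcggcg
Klf9, chr19:23141130-23141158, + strand, CACCC 84 bases before the start: acagagttgaatCACCCtccccactggcc
Klf3, chr5:64803389-64803417, + strand, CACCC 120 bases before the start: ggcggctgcctcCACCCaagtgggtgggg

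Of 13 measured Klf and Sp genes outside the members (of 16 listed), 2 were lower in EBs and 0 higher, with 14.7% and 15.7% of all genes so called, and the median difference was -0.03 against -0.04 over all genes. Klf16, a repressor close to Klf9 and Klf13, averaged 7.78 ± 0.12 in EBs and 8.49 ± 0.23 in ESCs (SD, n = 5 and 4). Sp1, the widely expressed activator of GC boxes, averaged 9.89 ± 0.12 in EBs and 10.53 ± 0.03 in ESCs, and all its 3 probe sets were lower. Sp8 differed by 0.70 ± 0.23 (SE, adjusted p = 0.0609) and was not called. Klf1, Klf14, Klf17 and Sp4 had both means under log2 4.

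Partners and described targets of Klf2, Klf4 and Klf5 in ESCs mostly fell. Of 15 such genes, 11 were lower in EBs and 1 higher, against 14.7% and 15.7% of all genes. The median difference was -1.38, against -0.04 over all genes. Zfp42, also called Rex1, averaged 5.10 ± 0.40 in EBs and 11.57 ± 0.28 in ESCs. Nr0b1, a repressor of the ESC network, averaged 2.65 ± 0.09 in EBs, near the floor, and 8.13 ± 0.45 in ESCs. Fbxo15, an F-box protein, averaged 5.68 ± 0.52 in EBs and 10.23 ± 0.16 in ESCs. Tfcp2l1, a factor of naive ESCs, averaged 4.30 ± 0.54 in EBs and 8.32 ± 0.14 in ESCs. Tbx3, a T-box factor of both ESCs and later tissues, was the gene called higher, at 0.75 ± 0.16 (SE). Esrrb, an orphan nuclear receptor, was not called with its brightest probe set (-0.14 ± 0.07, SE), but its probe set 1436926_at, picked after its values were seen, averaged 6.05 ± 0.14 in EBs and 9.91 ± 0.21 in ESCs.

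Upstream of Klf4 lies the cytokine LIF, whose receptor acts through Stat3. Of 7 genes of this pathway 3 were higher in EBs and 2 lower, against 15.7% and 14.7% of all genes. The receptor subunits Lifr and Il6st rose by 1.07 ± 0.16 and 0.48 ± 0.10 on the log2 scale (SE), and the kinase Jak1 by 0.43 ± 0.09. The Stat3 targets Socs3 and Pim1 fell by 0.92 ± 0.19 and 1.77 ± 0.09, while Stat3 itself differed by -0.02 ± 0.08 and was not called. Upstream of Klf2 lies the kinase Erk5, the product of Mapk7, with the Mef2 factors. Of 7 genes of that pathway, 3 were higher and 0 lower, against 15.7% and 14.7% of all genes. The 3 were Mef2c at 1.89 ± 0.11, Mef2a at 1.74 ± 0.20 and Mapk7 at 0.28 ± 0.06. The part of these pathways in the levels of Klf4 and Klf2 was not tested.

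RNA of most listed genes of the TGF-β pathway, known to induce Klf10, was higher in EBs, where Klf10 was lower. RNA levels do not give the activity of the pathway, and its part in the level of Klf10 was not tested. Of 10 genes of this pathway, 6 were higher and 2 lower, against 15.7% and 14.7% of all genes. The ligands Tgfb2 and Tgfb1 rose by 3.06 ± 0.39 and 2.42 ± 0.15 on the log2 scale (SE), with Tgfb1 under log2 4 in ESCs, so that its difference may be understated. The receptor Tgfbr1 rose by 2.0 ± 0.13 and the transducer Smad3 by 2.18 ± 0.21. The inhibitors Smad7 and Skil fell by 0.44 ± 0.08 and 0.69 ± 0.08. Of 7 genes of the glucocorticoid and thyroid hormone response that governs Klf9 in other tissues, 2 were higher and 1 lower. Of all genes, 15.7% were higher and 14.7% lower. The part of this response in the level of Klf9 was not tested. The thyroid hormone receptor Thra rose by 2.0 ± 0.19, with ESC 2 above the other ESCs, and Zbtb16, a zinc finger repressor, by 1.95 ± 0.12 with its brightest probe set, though its probe set 1427638_at fell by 0.49 ± 0.10. Fkbp5, a target of the glucocorticoid receptor, fell by 0.87 ± 0.11.

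Proteins that work with Krüppel-like factors changed in both directions. Of 13 measured coregulators (of 14 listed), 7 were lower in EBs and 2 higher, against 14.7% and 15.7% of all genes. The corepressors of Klf3 and Klf12 moved apart, as Ctbp2 averaged 10.74 ± 0.10 in EBs and 12.22 ± 0.17 in ESCs (SD), whereas Ctbp1 averaged 10.64 ± 0.17 in EBs and 9.66 ± 0.05 in ESCs. The acetyltransferase Kat2b fell by 2.0 ± 0.07 on the log2 scale (SE) and Sap30, a subunit of the Sin3 complex, by 1.29 ± 0.05. Hdac2, a deacetylase, rose by 0.60 ± 0.11. Of 12 targets described for these factors outside ESCs, 3 were higher and 1 lower, against 15.7% and 14.7% of all genes. Lgals3, which Klf3 represses in other mouse tissues, fell by 2.11 ± 0.21, while Cdkn1a, the cell cycle inhibitor p21, rose by 1.58 ± 0.29, Myh10, a nonmuscle myosin, by 1.37 ± 0.09 and Tagln, a smooth muscle protein, by 0.96 ± 0.17. The endothelial targets of Klf2, Nos3, Thbd and S1pr1, were not called, but Thbd and S1pr1 had both means under log2 4, and Thbd differed by 0.83 ± 0.27 (SE, adjusted p = 0.0584).

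The genes with profiles most like those of Klf2, Klf4 and Klf5 over the 9 arrays were found among 3603 genes that ranged over at least 1 log2 unit. For Klf2 these were Trap1a, Grwd1 and Heatr1 (Pearson r = 0.999, 0.997 and 0.997), for Klf4 Faap24, Rexo2 and Mycn (0.985, 0.983 and 0.983), and for Klf5 Mkrn1, Rbm34 and Lefty1 (0.999, 0.999 and 0.998). The 9 points lie in an EB and an ESC cluster, so r is a description only, and 594 genes exceeded r = 0.95 with Klf2, 141 with Klf4 and 711 with Klf5. Lefty1 and Mycn are also in the list of ESC partners given above.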

How the data were processed

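For each of the 9 arrays the authors deposited a linear GCRMA intensity of every probe set. GCRMA corrects background by probe sequence, normalizes the arrays to 1 distribution and summarizes probes, and its floor compresses low values. Whether all arrays were normalized together is not given in the sources used here. No scanner files were used. The log2 was taken, 64 control probe sets were left out, and limma 3.58.1 in R 4.3.3 (eBayes with trend and robust) compared EBs with ESCs, two-sided, over 45037 probe sets. Groups came from the sample titles. Symbols came from the array's annotation, with 34945 probe sets paired with 1 symbol, 932 with several and 9160 with none. The fit was checked on simulated data. Precision is limited by how few arrays there are, as arrays give no depth of sequencing.

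The members and gene lists were chosen with earlier results of these data known. Named genes were all members, up to 4 called genes of each of 8 lists with groups apart and the largest difference, genes behind small counts, and the 3 genes most like Klf2, Klf4 and Klf5. Stat3, Nos3, Thbd, S1pr1 and the list genes described as under log2 4 were named after their values were seen. Alternatives were quantile normalization, median centring, no trend or robust step, array weights, probe sets with a mean of log2 4 or more alone, a 2-fold threshold, each array left out, the range of array numbers as a block or alone, and other choices of a gene's probe set.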

Additional observations from a re-analysis of the deposited data

Results flagged for a closer look

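In 132 groups of arrays, of the 38 member probe sets and the 28 list genes named by rule, the highest or lowest array was set against its nearest neighbor as a share of the whole range, and 11 exceeded the limit of Dixon's test for its group size. Chance flags about 1 in 20 groups. Klf7 1419354_at had ESC 2 at 6.08, with the next at 5.64 (0.979), and Klf13 1436316_at had ESC 2 at 9.11, with the next at 8.91 (0.985). Klf13 1436316_at also had EB 9 at 8.63, with the next at 8.88 (0.841). Klf3 1429360_at had EB 3 at 6.61, with the next at 6.34 (0.988), and Klf3 1442920_at had ESC 6 at 4.2, with the next at 3.72 (0.916). Among probe sets under log2 4, Klf5 1430255_at had ESC 2 at 3.42 (0.854), and ESC 10 was highest for Klf9 1452723_at at 2.91 (0.902), Klf12 1422227_at at 2.52 (0.881) and Klf12 1439846_at at 3.39 (0.943), by under 0.05 each. None of these probe sets was called. Among list genes, Nr0b1 had EB 5 at 2.81, with the next at 2.64 (0.743), and Thra had ESC 2 at 6.60, with the next at 5.70 (0.919), both smaller than their difference between groups.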

How the results depend on the processing

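Klf2, Klf4, Klf5 and Klf9 were called lower in EBs in all 21 alternatives, at -4.16 to -3.07 for Klf2, -3.30 to -2.72 for Klf4, -3.70 to -0.54 for Klf5 and -3.10 to -1.93 for Klf9. The end of the range nearest to 0 came from plain _at probe sets for Klf5 and from the mean over probe sets for Klf9. The count of members called lower was 4 to 6 and that of member probe sets 11 to 21. The counts called higher were less stable. At a 2-fold threshold 0 genes and 0 probe sets of the members were higher, and 11 and 16 genes of the related lists were higher and lower. Arrays 1 to 6 alone gave 1 gene and 1 probe set higher, and the mean over probe sets gave 0 genes. Without each array in turn, 0 to 2 genes and 0 to 2 probe sets were higher. With the mean over probe sets, Klf3 reversed to -0.25 and Klf6 to -0.28. Klf12 was called higher, at 0.52, in arrays 7 to 10 alone. Over all genes 2666 were called lower, but 5109 with array weights and 4819 without EB 9, and the cause was not tested. The median over all genes was -0.04, and -0.01 after quantile normalization. No paired analysis was run, because the labels do not say whether any EB sample belongs with an ESC sample. Values near the GCRMA floor limit what low probe sets can show.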
